A study of Mus musculus with 2 samples.

Results

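The 10 epidermal and bulge structural keratin genes Krt1, Krt2, Krt5, Krt10, Krt14, Krt15, Krt77, Krt78, Krt79 and Krt80 were followed through dorsal mouse skin, cell class by cell class, in control and testosterone-treated animals. They were chosen by symbol from the 32285 genes of the count tables, which hold 53 genes with a keratin symbol, and all 10 were present. Both groups were male C3H/HeN mice whose back skin was shaved at 7 weeks of age and taken at 9 weeks. Control mice received vehicle, and the mice of the androgenetic alopecia (AGA) model received testosterone propionate (TP) under the skin at 0.5 mg per day. Skin of 15 mice per group was pooled before dissociation and gave 1 droplet library per group, so that neither library has a replicate, and differences between animals cannot be seen. The group given TP with a neutralizing antibody is not analysed here.

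Keratins build the intermediate filaments of epithelial cells as obligate pairs of an acidic type I and a basic type II chain. Dividing basal cells of the epidermis make the pair Krt5 (type II) and Krt14 (type I), and cells that leave the basal layer switch to Krt1 (type II) and Krt10 (type I). Krt15 is a type I chain of basal cells and of the hair follicle bulge, where follicle stem cells reside, and Krt79 is a type II chain known from the upper hair follicle.

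The 3 type I genes lie on chromosome 11 and the 7 type II genes on chromosome 15 (RefSeq, GRCm38.p6, the build of the deposited counts). The type I genes are spread from Krt10 (chr11:99385254-99397449) over Krt15 (chr11:100131759-100135949) to Krt14 (chr11:100203162-100207510). The type II genes run from Krt80 (chr15:101348315-101370162) over Krt5 (chr15:101707069-101712905), Krt2 (chr15:101810689-101818956), Krt1 (chr15:101845426-101850786), Krt77 (chr15:101858731-101869706) and Krt79 (chr15:101929332-101940324) to Krt78 (chr15:101946001-101996624). Krt80 overlaps 2 other RefSeq genes, Gm35853 and Mir1941, and the other members overlap none.

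Sequence just before the start of transcription was available for 7 members, and 4 of these windows are shown because they hold TATAA or ATAAAAG at nearly the same distance from the start in a basal, a suprabasal and 2 late keratins. Each run holds the 100 bases before the first transcribed base, 5′ to 3′ in the direction of the gene, which is on the minus strand in all 4, with the motif in capitals (TATAA or ATAAAAG, both strands searched).
Krt5, chr15:101712906-101713005: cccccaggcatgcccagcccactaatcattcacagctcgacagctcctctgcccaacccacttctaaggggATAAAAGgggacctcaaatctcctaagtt
Krt10, chr11:99389365-99389464: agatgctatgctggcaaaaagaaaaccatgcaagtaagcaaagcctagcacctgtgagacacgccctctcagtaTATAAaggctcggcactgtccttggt
Krt2, chr15:101818170-101818269: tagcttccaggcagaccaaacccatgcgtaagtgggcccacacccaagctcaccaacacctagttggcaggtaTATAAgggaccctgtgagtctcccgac
Krt78, chr15:101954288-101954387: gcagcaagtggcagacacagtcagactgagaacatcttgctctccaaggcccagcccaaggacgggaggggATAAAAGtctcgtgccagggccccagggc
TATAA began 26 bases before the start in Krt10 and 27 in Krt2, and ATAAAAG began 29 bases before it in both Krt5 and Krt78. Of 32851 windows of this length from all genes, 10.2% held TATAA and 2.21% held ATAAAAG, letters that were chosen after the windows of the members had been read. They do not cover every TATA-type run, and the window of Krt77, not shown, holds a run of alternating T and A that they do not match. The motifs TGANTCA and GCCNNNGGC, present in 2.73% and 6.78% of all windows, were in 0 of the 7 member windows. The window of Krt5 starts at the outer end of the annotated gene, while those of Krt2, Krt10 and Krt78 lie 787, 8085 and 42337 bases inside it, at the start of a shorter transcript.

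After filtering, the control library held 39076 cells with a median of 2063 unique molecular identifiers (UMIs, each a captured transcript end) and the TP library 18542 cells with a median of 5058. The mitochondrial limit had removed 7.58% of control and 22.6% of TP barcodes. Both libraries shared 184 barcodes among kept cells. Clustering without any keratin gene gave 29 clusters, of which 8 stayed unnamed and held 40.5% of control and 16.9% of TP cells, and names came from markers that are no keratins. The members were described in 5 keratinocyte classes. Basal-like cells of the interfollicular epidermis (IFE) numbered 2948 in control and 3168 in TP, IFE suprabasal-like cells 2937 and 3262, IFE granular-like cells 728 and 1508, upper hair follicle-like cells 1111 and 1476, and outer bulge-like cells 603 and 1655. A level is a gene's UMI total within a class, scaled to 1000000 UMIs (CPM). Since an end is counted once whatever the length of the transcript, levels of different genes were set side by side without scaling to length. Whether transcripts of different genes are captured and counted equally well was not tested, so such comparisons are of counts. Intervals in parentheses are at 95% and cover counting error only, and no test between the libraries was possible.

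Each of the 10 members had its highest level in the same class in both libraries, shown in the plot of levels per class. Krt14 and Krt5, the basal pair, led in IFE basal-like cells, where Krt14 was at 6129 CPM in control and 11339 CPM in TP and Krt5 at 4157 and 6299 CPM. Both were lower in each layer towards the surface. In control, Krt14 was at 2143 CPM in suprabasal-like and 813 CPM in granular-like cells, and Krt5 at 1404 and 515 CPM. Outside the IFE, control levels of Krt14 were 1837 CPM in the upper hair follicle-like and 1518 CPM in the outer bulge-like class, and the intervals of Krt14 and Krt5 (1528 CPM) overlapped in the outer bulge.

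Krt15 carries the name of a bulge keratin, but its level was highest in IFE basal-like cells, at 2407 CPM in control and 2358 CPM in TP. Outer bulge-like cells came next with 1043 and 1008 CPM. As a share of the 10 keratins together, Krt15 was largest in the outer bulge, with 18.8% of their UMIs in control and 13.2% in TP, against 16.4% and 9.86% in the basal IFE. After each cell was thinned to 1000 UMIs, a Krt15 UMI was found in 41.6% of outer bulge-like cells in control and 43.4% in TP, and in 66.4% and 61.8% of IFE basal-like cells. Dermal papilla-like cells, which should lack the gene, showed one in 6.81% and 4.61%.

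Krt10, the type I chain of the suprabasal pair, went from 987 CPM in basal-like through 11298 CPM in suprabasal-like to 17820 CPM in granular-like cells of the control, and from 1905 through 19842 to 25223 CPM in TP. Its partner Krt1 peaked a layer lower. Krt1 was at 5943 CPM in suprabasal-like and 4754 CPM in granular-like cells of the control, and at 11589 and 7194 CPM in TP. Krt77, a further type II chain of differentiating epidermis, had the order of Krt10 and not that of Krt1, with 2531 CPM in suprabasal-like and 8449 CPM in granular-like cells of the control and 3556 and 11820 CPM in TP. Krt77 made up 25.3% of the UMIs of the 10 keratins in control granular-like cells, above Krt1 with 14.3%.

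The other type II chains Krt78, Krt80 and Krt2, the last a late suprabasal keratin, were far lower. Krt78 reached 386 CPM in granular-like cells of the control and 467 CPM in TP, against 148 and 192 CPM in suprabasal-like cells. Krt2 reached 58.8 CPM in granular-like cells of the control and 169.9 CPM in TP, where the suprabasal-like level of 165 CPM had an interval that overlapped it. Krt80 was nearly level between upper hair follicle-like cells (165 CPM in control, 187 CPM in TP) and granular-like cells (165 and 178 CPM), with overlapping intervals in both libraries. Krt79, the upper follicle keratin, was at 2214 CPM in upper hair follicle-like cells of the control and 3376 CPM in TP, while the 3 IFE classes held between 17.9 and 18.8 CPM in control and between 28.3 and 31.97 CPM in TP.

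**Figure D1:**
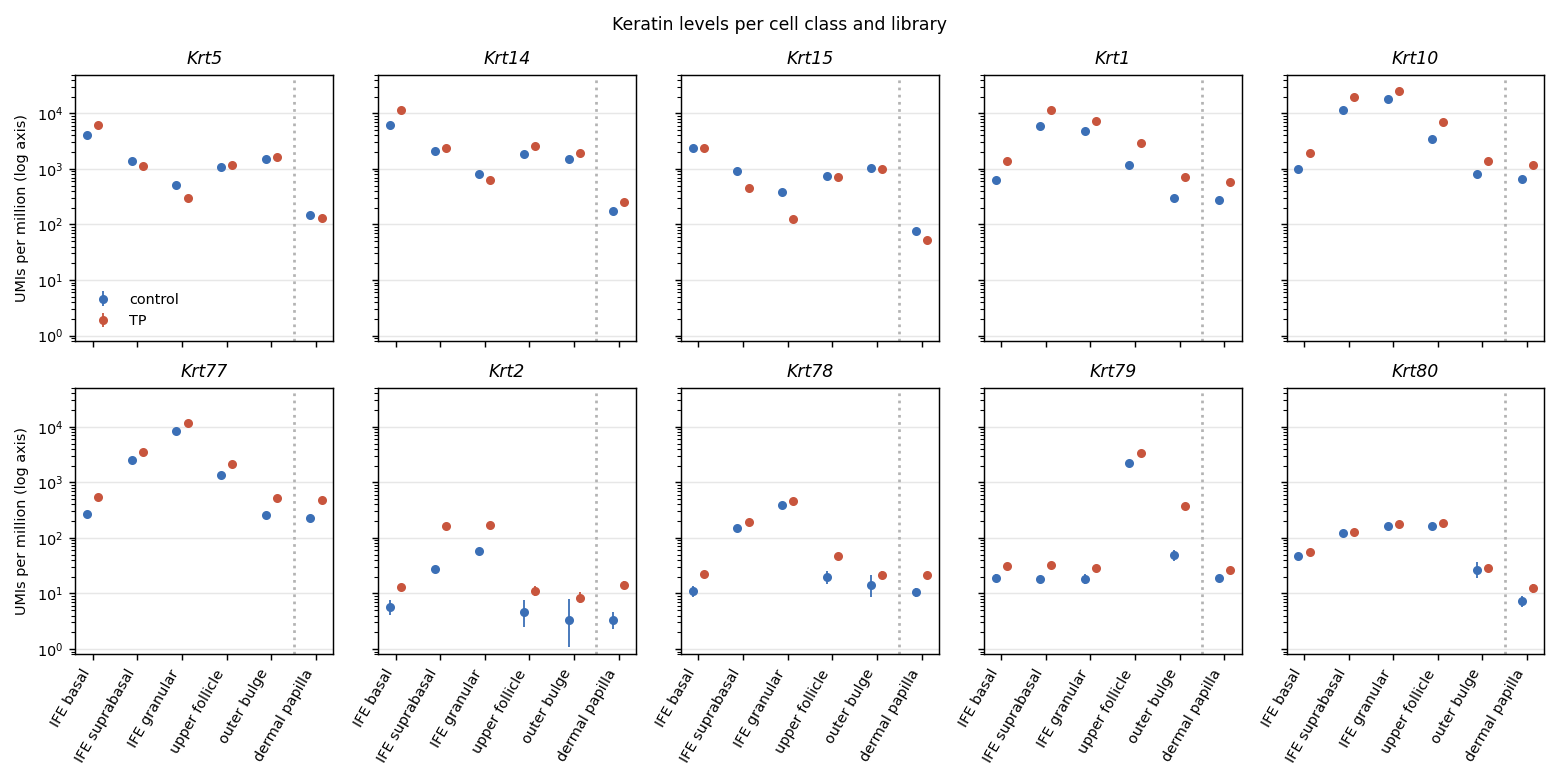
Level of each of the 10 keratins in UMIs per 1000000 UMIs of a class (log axis) in 5 keratinocyte-like classes and, right of the dotted line, in dermal papilla-like cells, with control in blue and TP in red. Points are 1 pooled library each and bars are 95% Poisson intervals of the counts. Krt5, Krt14 and Krt15 peak in basal-like cells, Krt10, Krt77 and Krt78 in granular-like cells and Krt79 in upper hair follicle-like cells of both libraries.

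UMIs of the abundant keratins were also found in cells that do not make them, and this floor differed between the libraries. Dermal papilla-like cells held Krt10 at 646 CPM in control and 1192 CPM in TP, Krt1 at 271 and 570 CPM and Krt77 at 231 and 476 CPM, while Krt5 was at 149 and 131 CPM and Krt15 at 77.8 and 52.2 CPM. Of the named classes outside the 5 keratinocyte classes described here, those that are no immune cells held Krt10 between 604 and 1053 CPM in control and between 829 and 2547 CPM in TP. Outer bulge-like cells (811 and 1367 CPM) and IFE basal-like cells (987 and 1905 CPM) were both within that range. An immune cluster of 392 and 192 cells held more (3330 and 5662 CPM), but few of its cells carried that sum, with means of 8.20 and 23.5 Krt10 UMIs per cell against medians of 1 and 5. A Krt10 UMI was found in 54.5% of thinned outer bulge-like cells in control and 72.3% in TP, next to 54.8% and 73.4% of inner root sheath-like cells. Shares of Krt1 and Krt77 in the outer bulge were likewise not above those of the inner root sheath beyond their intervals. Dermal papilla-like cells had lower shares, 48.4% and 68.7% for Krt10 and 24.5% and 43.6% for Krt1, and against them the outer bulge was above beyond the intervals for Krt1 in TP (48.8%), not for Krt10. In IFE basal-like cells the shares of Krt10 (56.9% and 77.5%) and Krt77 (25.2% and 44.9%) had intervals that overlapped those of the inner root sheath but lay above those of the dermal papilla-like cells in both libraries. The basal-like share of Krt1 (38.9% and 60.8%, against 27.5% and 52.4% in the inner root sheath) was above both of these references in both libraries. Its interval overlapped that of the immune cluster (34.9% and 56.9%) in both libraries. Endothelial-like cells (25.3% and 53.0%) overlapped it in TP only, and myeloid-like cells (28.8% and 39.7%) in control only. Whether Krt1 and Krt10 in basal-like cells and Krt1 in outer bulge-like cells exceed the background thus depends on the class it is read from. Median depths were 2097 and 3561 UMIs in IFE basal-like, 1855 and 3639 in outer bulge-like and 1996 and 3813 in inner root sheath-like cells. Krt14 in dermal papilla-like cells was at 177 and 249 CPM, far below its basal-like level.

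Over 57 points (clusters with at least 50 cells in a library), the members fell into groups by the Pearson r of log2(CPM + 1), a description only, since clusters of a library share its depth and its free RNA. Krt1 and Krt10 had r = 0.979, Krt10 and Krt77 r = 0.977, and Krt5 and Krt14 r = 0.966. Krt15 was closest to Krt5 (r = 0.949). The gene outside the keratins most like Krt5, Krt14 and Krt15 was the same for all 3, Col17a1, a hemidesmosome collagen of basal cells (r = 0.943, 0.935 and 0.942). Krt10 was most like Krtdap (r = 0.984), Krt77 most like Ly6g6c (0.985), Krt1 most like Calm4 (0.959), and both Krt78 (0.953) and Krt2 (0.820) most like Serpinb12. Krt79 was most like Defb6 (0.871), an upper follicle marker in the naming lists, and Krt80 most like Eppk1 (0.944), a plakin that binds keratin filaments.

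In whole libraries, the keratins made up a larger part of the RNA captured from TP skin. The 10 members held 0.741% of all UMIs in control and 2.29% in TP. Krt10 stood at 2993 CPM in control and 10362 CPM in TP, a ratio of 3.46 (3.45 to 3.48), Krt1 at 1255 and 4432 CPM (3.53) and Krt77 at 996 and 3516 CPM (3.53). Krt2 showed the largest ratio of the 10, from 12.2 to 77.7 CPM (6.37, 6.01 to 6.75). The basal keratins shifted less, Krt14 from 923 to 2209 CPM (2.39), Krt5 from 674 to 1237 CPM (1.83) and Krt15 from 386 to 508 CPM (1.32). Krt79 went from 84.9 to 276 CPM (3.25), Krt78 from 47.5 to 147 CPM (3.10) and Krt80 from 37.6 to 86.0 CPM (2.29). With a difference of at least 1 in log2(counts per 10000 + 0.1) as the mark, 8 of 10 members were higher in TP and 0 lower, where 1.73% of all 17581 genes compared were higher and 0.796% lower. The median log2 difference was 1.52 for the members and -0.06 for all genes.

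The whole-library differences were smaller when both libraries were given the same make-up. IFE granular-like cells were 1.86% of control and 8.13% of TP cells, outer bulge-like cells 1.54% and 8.93%, and the suprabasal-like and basal-like shares were more than 2-fold higher. When every cluster was given its control share of UMIs in both libraries, 2 members stayed past 2-fold, Krt2 (log2 difference 1.31) and Krt1 (1.07), and the median member difference was 0.66. With the TP shares in both libraries 1 stayed, Krt2 (1.54). Krt15 turned from 0.39 to -0.30 with control shares and to -0.40 with TP shares. A class sum cannot tell fewer cells from less RNA per cell, and 1 pooled dissociation per group cannot tell the share of a cell type in skin from its share among recovered cells.

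The plot of ratios shows the differences within classes. In IFE basal-like cells, Krt1 was the only member past 2-fold (625 to 1359 CPM, 2.18, 2.11 to 2.25), where 0.402% of 11436 genes were that much higher and 0.673% lower. Krt10 (1.93) was just under the mark, and Krt77 (2.01), Krt2 (2.28) and Krt78 (2.001) were past 2-fold only without the pseudocount. The thinned shares of Krt2 (0.469% and 1.57%) and Krt78 (1.08% and 2.82%) were not above those of dermal papilla-like cells (0.301% and 1.83%, 0.994% and 2.10%) beyond their intervals. Krt1 in dermal papilla-like cells, its background, was at 271 CPM in control and 570 CPM in TP. With the level of dermal cells subtracted the log2 difference of Krt1 was 1.21, against 1.11 without. With the pooled level of the immune and endothelial cells subtracted, which exceeds the Krt1 level of basal-like cells in both libraries, nothing was left and the difference was 0.00, so this call depends on which cells give the background. The 9 IFE suprabasal markers summed to 2525 CPM in control and 4526 CPM in TP in this class (1 at 0 in each) and the 11 granular markers to 52.6 (2 at 0) and 147 CPM (none at 0), and their part in the difference was not tested. The basal keratins themselves were higher in TP as well, Krt14 by 1.85 (1.83 to 1.87) and Krt5 by 1.52 (1.496 to 1.535), while Krt15 did not follow them (0.980, 0.962 to 0.998). The class held 3 clusters. Krt14 was 2.29 times higher in cluster 5, 1.69 times in cluster 13 and 1.56 times in cluster 19, which was led by cell cycle genes.

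In IFE suprabasal-like cells, Krt2 was the only member past 2-fold, from 27.4 to 165 CPM (6.04, 5.41 to 6.76), where 0.39% of all genes were that much higher and 0.506% lower. The differentiation pair was higher in TP by 1.95 for Krt1 and 1.76 for Krt10, and Krt77 by 1.40. Of the keratins of the layer below, Krt5 had a ratio of 0.810 (0.795 to 0.825), Krt14 of 1.09 (1.08 to 1.11) and Krt15 of 0.501 (0.488 to 0.514). Krt15 was at 906 CPM in control and 453 CPM in TP in these cells. The 2 clusters of the class differed. In cluster 3 the ratio was 0.743 for Krt5, 0.989 for Krt14 and 0.452 for Krt15, and in cluster 6 it was 1.24 for Krt5, 2.12 for Krt14 and 0.870 for Krt15. The 9 suprabasal markers summed to 15644 CPM in control and 22860 CPM in TP in the class (1 at 0 in each), the 11 granular markers to 165 (2 at 0) and 303 CPM (none at 0) and the 8 basal markers to 2619 and 2284 CPM (none at 0), and their part was not tested.

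In IFE granular-like cells, Krt2 was higher, from 58.8 to 169.9 CPM (2.89, 2.59 to 3.24), and Krt15 lower, from 377 to 126 CPM (0.335, 0.318 to 0.354), with 0.437% of genes higher and 0.544% lower by that much. Krt5 (0.587) and Krt14 (0.785) were also on the lower side, and Krt10 (1.42), Krt1 (1.51) and Krt77 (1.40) on the higher side. Krt15 was found in 15.8% of thinned granular-like cells in control, above the 7.51% of the inner root sheath. In TP its 7.17% had an interval that overlapped that of the inner root sheath (5.71%) but lay above dermal papilla-like cells (4.61%). The TP shares of Krt5 and Krt14 in granular-like cells likewise overlapped those of the inner root sheath. The class also differed in its markers. The 11 IFE granular markers summed to 1667 CPM in control (1 at 0) and 4311 CPM in TP (none at 0), and the 8 IFE basal markers to 1263 and 849 CPM, and their part in the keratin differences was not tested.

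**Figure D2:**
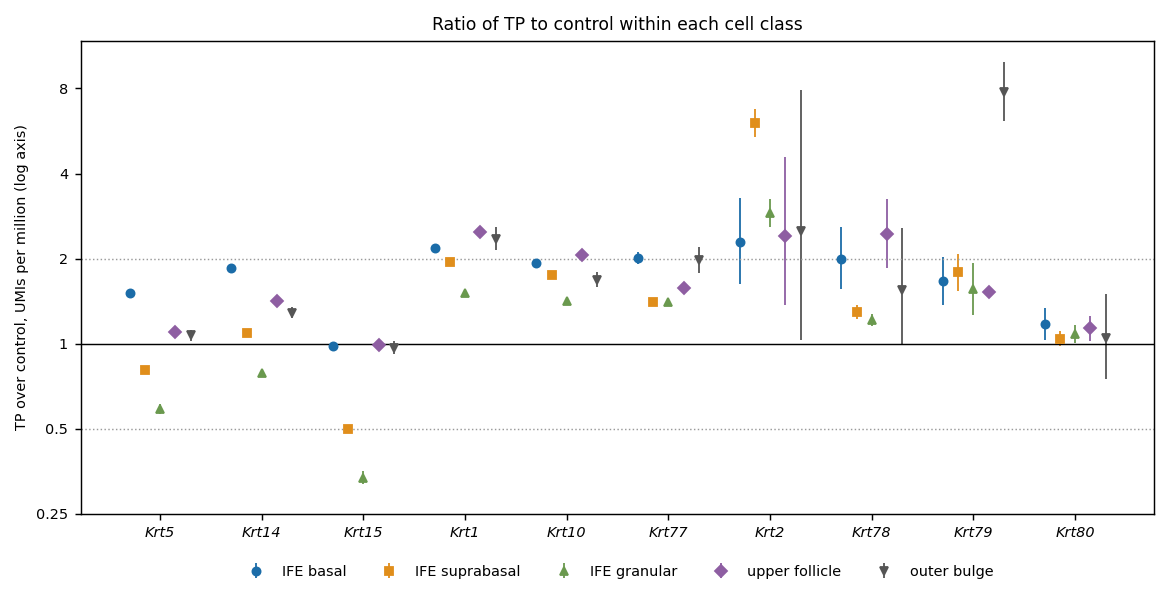
Ratio of TP to control in UMIs per 1000000 UMIs (log axis) for each keratin in 5 cell classes, with 95% intervals of counting error and dotted lines at 2-fold. Krt2 in suprabasal-like cells (6.04) and Krt79 in outer bulge-like cells (7.76) stand highest, and Krt15 in granular-like cells (0.335) lowest.

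In upper hair follicle-like cells, Krt1 (1184 to 2944 CPM, 2.49) and Krt10 (3384 to 6992 CPM, 2.07) were past 2-fold, where 0.433% of genes were higher and 0.687% lower by that much. Among cells of 2000 to 4000 UMIs no member of this class was past 2-fold. The marker keratin of this compartment, Krt79, had a ratio of 1.52 (1.48 to 1.57) and Krt80 of 1.13. Krt15 (0.987) and Krt5 (1.10) were close to 1, and the scarce Krt2 (2.41) and Krt78 (2.43) were past 2-fold only without the pseudocount. The 9 IFE suprabasal markers summed to 8729 CPM in control and 13446 CPM in TP in this class (1 at 0 in each), and the 8 upper follicle markers to 5455 and 8107 CPM. In outer bulge-like cells, Krt79 was at 48.4 CPM in control and 375 CPM in TP (7.76, 6.14 to 9.94), and Krt1, with a share not above that of the inner root sheath, at 300 and 705 CPM (2.35), with 0.975% of genes higher and 1.5% lower by 2-fold. Krt2, with 5 UMIs in control and 78 in TP, was past 2-fold only without the pseudocount (2.501, 1.03 to 7.92). Among cells of like depth the ratio of Krt79 was smaller, at 2.799 for 1000 to 2000 UMIs, 5.58 for 2000 to 4000 and 2.804 for 4000 to 8000, with 11, 12 and 31 control UMIs, and each interval was above 1. No bin above 8000 UMIs was compared in this class. Its TP cells rich in Krt79, described below, had a median of 9519 UMIs, so the bins left out many of them. The smaller ratios therefore cannot set the class value aside. The bulge keratins Krt15 (0.967, 0.916 to 1.02), Krt5 (1.07) and Krt14 (1.29) were nearer to 1.

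Cells of TP held more UMIs in each of the 5 keratinocyte classes, so cells of the same depth were also compared. Medians were 2097 and 3561 UMIs in basal-like, 2783 and 6540 in suprabasal-like, 6569 and 14678 in granular-like and 1862 and 4075 in upper hair follicle-like cells. Within single clusters and depth bins that held at least 20 cells of each library, there were 24 bins in the 5 classes. Krt1 was above 1 beyond its interval in 6 of 6 basal-like bins (ratios from 2.18 to 3.63), 7 of 7 suprabasal-like bins (1.45 to 3.09) and 4 of 4 granular-like bins (1.17 to 1.501). Krt10 was above 1 in 6 of 6 basal-like and 7 of 7 suprabasal-like bins, but in granular-like cells it was lower at 2000 to 4000 UMIs (0.829) and higher from 4000 UMIs (1.06 at 4000 to 8000, 1.42 at 8000 to 16000, 1.59 at 16000 to 32000). For Krt1 in the basal and suprabasal IFE, and for Krt10 in the suprabasal IFE, TP was thus the higher library also among cells of like depth within a cluster. Matching depth does not take out free RNA. A Krt1 UMI was found in 24.5% of thinned dermal papilla-like cells in control and 43.6% in TP. The basal-like call of Krt1 depends on the background, as given above. Over both suprabasal-like clusters together, Krt10 was nearer to 1 at 2000 to 4000 UMIs, as given below. Krt14 was above 1 in 4 of 7 suprabasal-like bins and below 1 in 2, with ratios up to 2.17. In basal-like cells Krt14 was above 1 in 5 of 6 bins, with a median ratio of 1.46, Krt5 in 5 with a median of 1.22, and Krt15 was below 1 in 4 and above it in 0.

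Upper hair follicle-like cells had 4 bins. Krt1 was above 1 in all 4 of them, with ratios from 1.27 to 2.28. Krt10 was at 1.94 from 1000 to 2000 UMIs, below 1 beyond its interval at 2000 to 4000 (0.947, 0.901 to 0.995), and at 1.11 and 1.86 in the deeper bins. Krt79 came to 0.929 with an interval that spanned 1, 1.098, 0.915 and 1.31 from the shallowest to the deepest bin. The median was 1.01 against 1.52 for the whole class, so the class value of Krt79 was not seen among cells of like depth. Cells rich in Krt79 were the deeper ones of the class in both libraries, as given below, so a depth bin also sorts cells by Krt79. The bins alone thus cannot set the class value aside.

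Krt14 in granular-like cells changed direction with depth. Its ratio was 2.78 at 2000 to 4000 UMIs, 1.53 at 4000 to 8000, 0.385 at 8000 to 16000 and 0.316 above that. Krt15 in the same cells went from 1.38, with an interval that spanned 1, over 0.388 and 0.200 to 0.147. Krt2 went the other way, from 0.958 at 2000 to 4000 UMIs to 5.34 at 8000 to 16000 and 4.79 above that. In granular-like cells the class value of Krt14 had the direction seen from 8000 UMIs upwards. The class values of Krt2 and Krt15 had the direction seen from 4000 UMIs upwards. In TP the thinned shares of Krt14 (28.0%) and Krt15 (7.17%) in this class were not above those of the inner root sheath (23.2% and 5.71%) beyond their intervals. Over both suprabasal-like clusters at 2000 to 4000 UMIs, Krt2 remained at 2.48 and Krt15 at 0.376, while Krt10 came to 1.05.

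**Figure D3:**
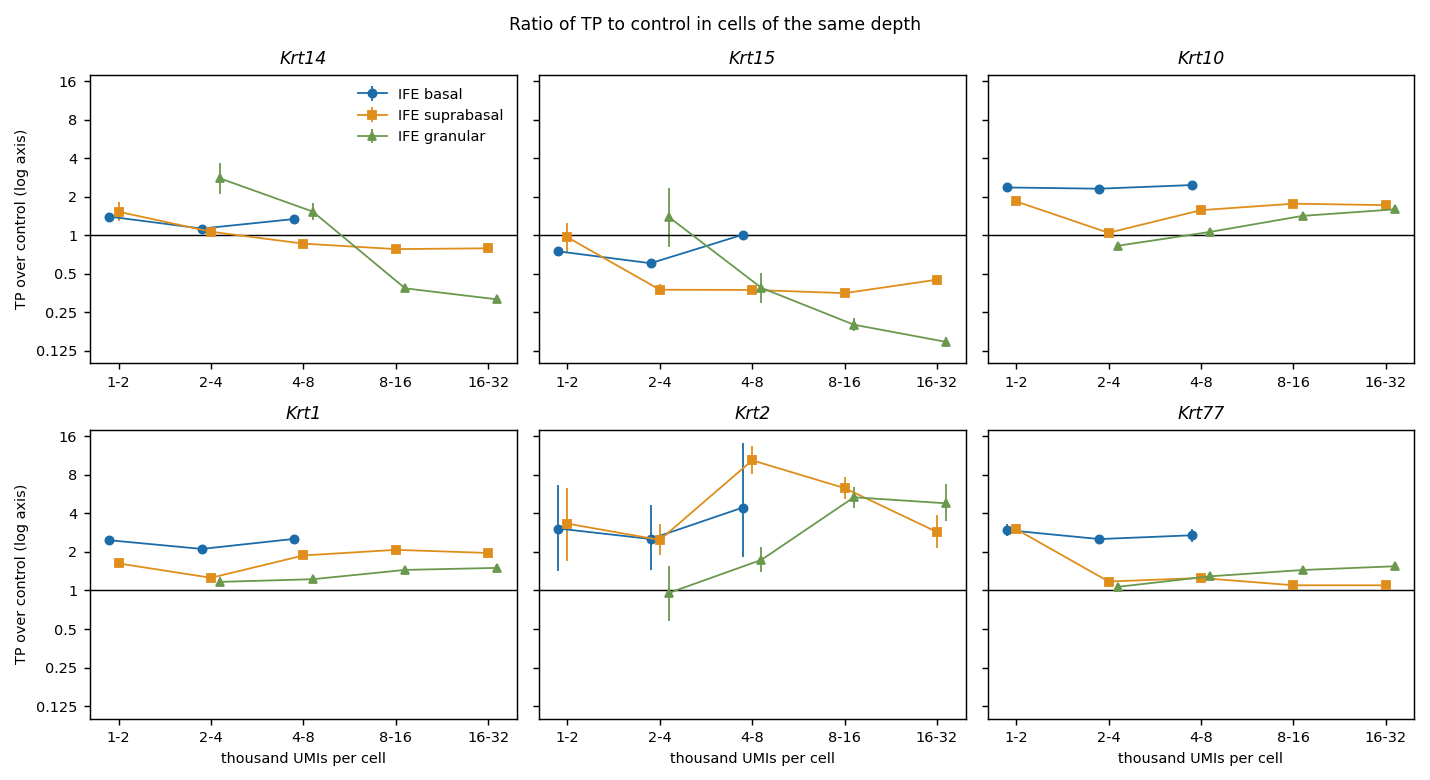
Ratio of TP to control (log axis) of 6 keratins in cells of the same number of UMIs (bins along the x axis, in units of 1000 UMIs per cell), for basal-like, suprabasal-like and granular-like cells of the IFE. Points are 1 pooled library against the other, bars are 95% intervals of counting error. Krt15 and Krt14 fall with depth in granular-like cells, Krt2 is higher there from 4000 UMIs, and Krt1 stays above 1 in all bins shown.

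The balance within pairs was compared as a ratio of UMIs in the same cells, which does not depend on the class total. Krt15 was set against Krt14 in the same way, although both are type I chains and form no pair with each other. Krt5 per Krt14 UMI was lower in TP in each of the 5 classes. It was 0.678 (0.668 to 0.688) in control and 0.556 (0.551 to 0.560) in TP in basal-like, 0.655 and 0.486 in suprabasal-like, 0.634 and 0.474 in granular-like, 0.587 and 0.457 in upper hair follicle-like and 1.01 and 0.837 in outer bulge-like cells. Krt15 per Krt14 UMI dropped further, from 0.393 to 0.208 in basal-like, from 0.464 to 0.198 in granular-like and from 0.687 to 0.516 in outer bulge-like cells. In granular-like cells of TP, the thinned shares of Krt5 (18.1%), Krt14 (28.0%) and Krt15 (7.17%) were not above the inner root sheath (16.9%, 23.2% and 5.71%) beyond their intervals. The granular-like balances are therefore given as values only. Cells of like depth showed the same direction. Of the 24 bins, 23 had a lower Krt5 to Krt14 ratio in TP and 23 a lower Krt15 to Krt14 ratio, with medians of 0.808 and 0.575 times the control ratio.

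Krt1 per Krt10 UMI was higher in TP in suprabasal-like (0.526 in control and 0.584 in TP), granular-like (0.267 and 0.285) and upper hair follicle-like cells (0.350 and 0.421). Among cells of like depth it was higher in 6 of 7, 3 of 4 and 4 of 4 bins of these classes. In basal-like cells it was 0.633 and 0.714 and in outer bulge-like cells 0.370 and 0.516, but there the share of Krt10, and in the outer bulge also that of Krt1, was not above the inner root sheath beyond its interval, so these are given as values only. The background moved the same way. In dermal papilla-like cells Krt5 per Krt14 UMI was 0.843 in control and 0.526 in TP, Krt15 per Krt14 UMI 0.441 and 0.2096, and Krt1 per Krt10 UMI 0.419 and 0.479, and its part in the values of the keratinocytes was not tested.

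**Figure D4:**
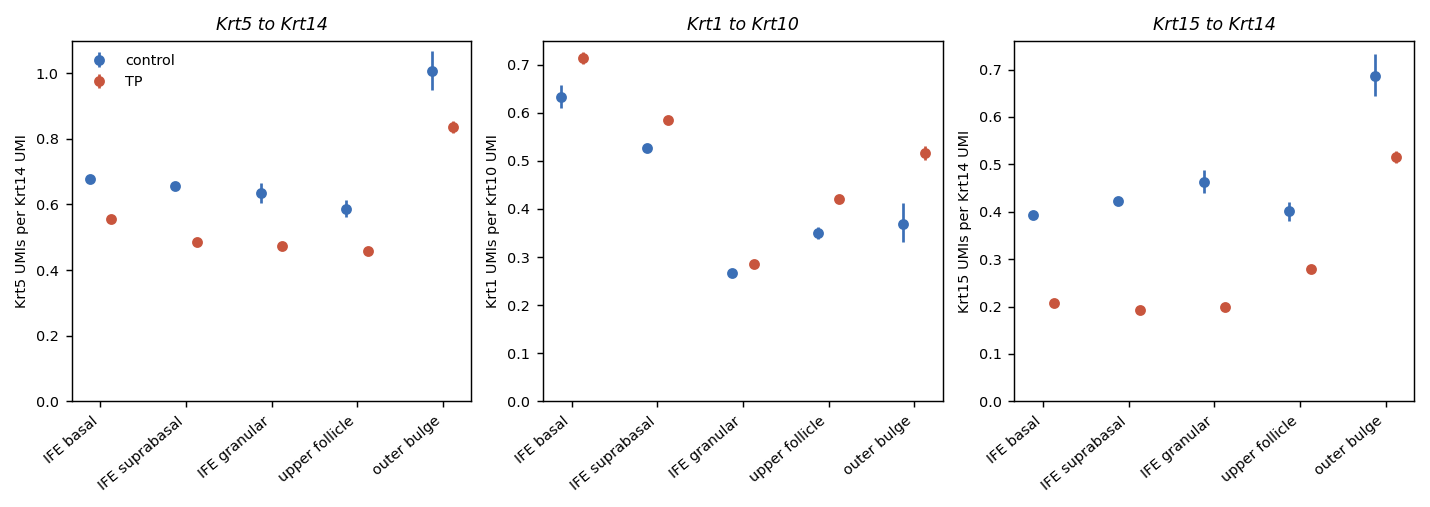
UMIs of Krt5 per Krt14 UMI, of Krt1 per Krt10 UMI and of Krt15 per Krt14 UMI in 5 cell classes, control in blue and TP in red, with 95% intervals of counting error. The TP points lie below control in all 5 classes for Krt5 to Krt14 and Krt15 to Krt14, and above it in all 5 for Krt1 to Krt10, of which the basal-like and outer bulge-like points rest on Krt10 with a share not above that of inner root sheath-like cells. The granular-like TP points of Krt5 to Krt14 and Krt15 to Krt14 also rest on shares with intervals that overlap those of inner root sheath-like cells.

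Krt2 UMIs were found in few cells. After thinning to 1000 UMIs, 1 or more Krt2 UMI was found in 2.33% (65 of 2786) of suprabasal-like cells in control and 5.16% (165 of 3200) in TP, against 0.301% and 1.83% of dermal papilla-like and 1.67% and 1.61% of inner root sheath-like cells. The control share was above that of the dermal papilla-like cells beyond its interval, and its interval overlapped that of the inner root sheath. In control the inner root sheath share was itself above that of the dermal papilla-like cells. The TP share of suprabasal-like cells was above both references. Cells with at least 3 Krt2 UMIs of 1000 numbered 5 of 2786 in control and 58 of 3200 in TP, and in granular-like cells 4 of 728 and 33 of 1507. Of the 58 cells, 34 had 3 or 4 UMIs, close to the limit. These 58 cells averaged 29.1 Krt10 UMIs of 1000 against 17.7 in the other 3142, and 0.310 Krt14 UMIs against 1.93, at medians of 8000 and 6648 UMIs per cell. The 5 control cells did not have this order, with 7.40 Krt10 UMIs against 9.91 in the other 2781 and 2.40 Krt14 UMIs against 1.42. The limit was chosen after the values had been seen.

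Krt79 in the outer bulge was also found in few cells. A Krt79 UMI was found in 2.98% of thinned outer bulge-like cells in control and 10.4% in TP. In inner root sheath-like cells the shares were 3.20% and 5.84%, and the control intervals overlapped. By level, control outer bulge-like cells (48.4 CPM, 72 UMIs) were above cluster 11 of the inner root sheath (19.9 CPM). They were also above dermal papilla-like cells (18.6 CPM). Cluster 1 of the inner root sheath was at 38.9 CPM, with an interval that overlapped that of the outer bulge, and the immune cluster was at 48.7 CPM. Cells with at least 3 of 1000 UMIs numbered 0 of 503 in control, which allows a share of up to 0.596% (3 counts of the total), and 40 of 1540 in TP. Those 40 cells had a median of 9519 UMIs, against 3871 in the other 1500. The 8 upper follicle markers summed to 1937 CPM in them and 605 CPM in the others, and the 8 outer bulge markers to 728 and 2086 CPM, with none of either list at 0. The markers that name their cluster were thus lower in them than in the other cells. In upper hair follicle-like cells, the usual place of Krt79, 200 of 989 control cells (20.2%) and 460 of 1435 TP cells (32.1%) had at least 3 of 1000 UMIs.

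In those upper follicle cells the other keratins differed by Krt79 level in both libraries. Cells rich in Krt79 averaged 0.385 Krt5 UMIs of 1000 in control against 1.17 in the remaining cells, and 0.372 against 1.62 in TP. Krt10 was higher in them, 3.72 against 2.35 in control and 5.68 against 4.83 in TP. Krt1 was not, with 0.760 against 1.02 and 1.43 against 2.62. Krt79-rich cells were also deeper, with medians of 3414 and 6037 UMIs against 1871 and 3544. Their markers differed too. The 8 upper follicle markers summed to 13730 CPM against 1981 in control and 15560 against 2560 in TP. The 8 IFE basal markers summed to 1097 against 2215 and 1001 against 2156 CPM. Whether the keratins differed with Krt79 or with the kind of cell was not tested.

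Genes listed as linkers were compared as a list. Most of their proteins tie keratins to junctions or to each other, but Sfn, a 14-3-3 protein, is not a structural link of this kind. Of the 12, 2 were past 2-fold higher in whole libraries, where 1.73% of all genes were, Eppk1 (51.0 to 183 CPM) and Sfn, the 14-3-3 protein of epithelia (682 to 1569 CPM). Within the 5 classes, 1 value passed with the pseudocount, that of Dst, which anchors keratin to hemidesmosomes and was at 229 CPM in control and 107 CPM in TP in granular-like cells, where 0.544% of genes were that much lower. Sfn in basal-like cells (1256 to 2522 CPM, a ratio of 2.01) was past 2-fold only without the pseudocount. Of 18 epidermal regulators, Klf4, a factor of barrier formation (171 to 487 CPM), and Sox9, a factor of follicle stem cells (9.66 to 39.9 CPM), were higher and the receptor Notch1 (293 to 127 CPM) lower in whole libraries, where 1.73% of all genes were higher and 0.796% lower. With the pseudocount none passed 2-fold in any of the 5 classes, where between 0.39% and 0.975% of genes were higher and between 0.506% and 1.5% lower. Without it 2 scarce ones did, Sox9 in basal-like cells (2.32 to 5.77 CPM, a ratio of 2.49) and Ovol1 in outer bulge-like cells (26.9 to 12.2 CPM, a ratio of 0.453). The median log2 difference in whole libraries was 0.52 for the linkers and 0.15 for the regulators, against 1.52 for the keratins.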

How the data were processed

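The libraries of control and TP dorsal skin, each from 15 pooled mice, were analysed. The authors digested the skin with collagenase, removed red blood cells and debris, made 3′ droplet libraries and ran Cell Ranger 8.0.1 on the mm10 genome. The deposited values are the authors' raw UMI counts for each gene in each barcode, not normalized and not yet filtered for cell quality. Dissociation recovers cell types unequally, and droplets also capture free RNA.

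Barcodes were kept if they held 200 to 8000 genes and no more than 10% mitochondrial counts, and the 7.5% per library nearest to artificial doublets (a rewritten form of the DoubletFinder procedure, with scanpy 1.11.5) were removed, which left 108081800 control and 138788249 TP UMIs. Seurat 5.3.0 in R 4.3.3 integrated both libraries by reciprocal PCA on 1962 variable genes without keratins and 30 components, and clustered them at resolution 1. A cluster was named by its highest marker score if that was at least 1 with 3 or more markers detected. It stayed unnamed if another class had more markers among its leading 10 genes. The need for a lead of 0.5 over the next class, or for an own marker among the leading 10 genes, and the check on low depth were added with the clusters in view. Cluster 23 scored highest for the lymphocyte markers, but Cd74 and MHC class II genes led it, so it is called an immune cluster. No Schwann-like, sebaceous-like or pericyte-like cluster was named.

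Member UMIs were summed per class. For a sum the 95% interval is the exact Poisson one, for a share that of Clopper and Pearson (for a count of 0 the limit given is 3 counts of the total), and for a ratio the exact conditional binomial one. With 1 library per group there is no test, p-value or standard error. A gene entered a comparison if both libraries together held 50 or more of its UMIs, and a difference of at least 1 in log2(counts per 10000 + 0.1) was counted. Shares of cells were computed after thinning each cell to 1000 UMIs, and 5360 control and 811 TP cells of lower depth were left out. The ratio, the interval, the 2-fold count and the thinning were tested on simulated data. The text names all 10 members, the gene most like each by Pearson r (of 3 computed, genes of 200 or more UMIs, no gene models without a symbol), and linker or regulator genes past 2-fold. Members and gene lists were chosen with earlier results of these data known. Depth bins, the cells rich in Krt2 or Krt79 and the granular-like class as a comparison were added after the data had been seen. Positions and upstream sequence are RefSeq's for GRCm38.p6, matched by symbol, for 10 and 7 members. Python 3.11.15 (scipy 1.17.1, numpy 2.4.6, pandas 2.3.3) was used for the remaining steps, and TMM factors alone were taken from edgeR 4.0.16.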

Additional observations from a re-analysis of the deposited data

Results flagged for a closer look

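Krt5 moved in opposite directions in 2 layers of the IFE. In IFE granular-like cells its TP level was 0.587 times the control level (515 CPM in control and 302 CPM in TP), while in IFE basal-like cells it was 1.52 times the control level (4157 and 6299 CPM). With 1 library per group the difference between the layers was not tested. In TP, Krt5 was found in 18.1% of thinned granular-like cells, with an interval that overlapped that of the inner root sheath (16.9%). It lay above that of dermal papilla-like cells (11.4%). In granular-like cells Krt5 had a ratio of 1.64 at 2000 to 4000 UMIs per cell, 0.901 at 4000 to 8000, 0.333 at 8000 to 16000 and 0.263 above that. In basal-like clusters it was above 1 beyond its interval in 5 of 6 depth bins, and 1 bin of cluster 19 was lower (0.905).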

How the results depend on the processing

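The count of members past 2-fold in whole libraries was 8, and 2 with control class shares and 1 with TP class shares. In IFE basal-like cells it was 1, and 4 with TMM factors or without a pseudocount, 3 with the dermal background subtracted, at 2000 to 4000 UMIs or in cluster 5 or 19 alone, and 2 without doublet removal, as a mean over cells, with keratins among the clustering features or in cluster 13 alone. In IFE suprabasal-like cells it was 1, and 4 in cluster 6 alone and 2 with TMM factors, without doublet removal, at a mitochondrial limit of 5%, as a mean over cells, with keratins among the clustering features, at resolution 0.6 or 1.6, with either background subtracted, at 2000 to 4000 UMIs or in cluster 3 alone. In IFE granular-like cells it was 2, and 1 at 2000 to 4000 UMIs. In upper hair follicle-like cells it was 2, and 4 without a pseudocount or with the immune and endothelial background subtracted, 1 as a mean over cells, with keratins among the features or at resolution 0.6 or 1.6, and 0 at 2000 to 4000 UMIs. In outer bulge-like cells it was 2, and 3 without a pseudocount, 1 with the immune and endothelial background subtracted and 4 at 2000 to 4000 UMIs. Among members past 2-fold in their class, the log2 difference turned at 2000 to 4000 UMIs in granular-like cells for Krt2 (-0.056) and Krt15 (0.41) and in upper hair follicle-like cells for Krt10 (-0.079). Of the members under the mark, Krt5, Krt10 and Krt14 in granular-like cells turned at that depth as well. Krt2 in suprabasal-like cells stayed past 2-fold in 14 of 14 alternatives (1.07 to 3.06) and Krt79 in outer bulge-like cells in 12 of 12 (2.05 to 4.03). Krt1 in basal-like and in outer bulge-like cells came to 0.00 when the immune and endothelial background, which exceeds its level there, was subtracted. Of 50 shares of thinned cells with a UMI, 43 were higher in TP, 48 without thinning and 44 at 500 UMIs. The reference cells moved likewise. Thinned shares were higher in TP for all members but Krt5 and Krt15 in dermal papilla-like cells. In inner root sheath-like cells they were higher for all but Krt2 and Krt15. TMM factors of TP over control were 0.844 in whole libraries and from 0.837 to 0.935 in the 5 classes. The other causes were not tested. Leaving out a replicate was not possible with 1 library per group. No paired analysis was possible because each group is 1 library and no numbers pair mice across groups. Low counts limit Krt2, with 5 UMIs in outer bulge-like and 14 in upper hair follicle-like cells of the control.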

Other observations

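Hair matrix-like cells, the proliferating cells at the base of the follicle, held more of the basal pair than the dermal papilla-like cells in both libraries. Krt5 was at 275 CPM in control and 530 CPM in TP in them, and Krt14 at 234 and 462 CPM, while Krt15 was at 65.2 and 36.0 CPM. These cells numbered 1311 in control and 231 in TP, and the difference was not tested. Other classes outside the epithelium held more than the dermal papilla as well. Melanocyte-like cells held Krt5 at 285 and 167 CPM and Krt14 at 385 and 313 CPM. Endothelial-like cells held Krt5 at 132 and 301 CPM and Krt14 at 161 and 553 CPM. Only Krt5 in TP was higher in the hair matrix than in both of these, and the immune cluster held Krt5 at 711 and 500 CPM. The clusters that stayed unnamed held Krt10 at 872 CPM in control and 3409 CPM in TP and 9.80% and 5.59% of all UMIs of the 10 keratins.

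Krt2 in inner root sheath-like cells was at 15.2 CPM in control and 14.9 CPM in TP, a control level above that of IFE basal-like cells (5.73 CPM) and of dermal papilla-like cells (3.32 CPM). The 2 clusters of the class differed in control, with 24.2 CPM in cluster 1 and 4.26 CPM in cluster 11, the latter below the basal-like level. A Krt2 UMI was found in 1.67% of thinned inner root sheath-like cells in control and 1.61% in TP. Cluster 23, an immune cluster led by Cd74, H2-Aa, Cxcl2 and H2-Eb1 with Cd3g also among its leading genes, held the most Krt10 of the clusters named outside the epithelium, 3330 CPM in control and 5662 CPM in TP.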
